A study of Mus musculus with 2 samples.

Results

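Mat2a, Mat2b, Ahcyl1 and Ahcyl2 are 4 genes around the methionine cycle, and they were followed through every cell class that could be named in the small intestine of Apc-deleted mice. They were chosen by symbol, and all 4 were found among the 31053 genes listed for both libraries. The data were counts of unique molecular identifiers (UMIs), each of which stands for 1 captured mRNA molecule, in single cells of the proximal small intestine from 2 VilCreER Apc fl/fl (APC) mice. Both mice carried floxed Apc alleles and a tamoxifen-activated Cre under the villin promoter, which is active in intestinal epithelium and not in leukocytes. They received 2 injections of 2 mg tamoxifen 24 h apart and were sampled at day 4. There was no control genotype, so every comparison below is between cell classes of the same 2 animals. Ages were not given in the sources used here.

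The methionine cycle supplies S-adenosylmethionine (SAM), the methyl donor for DNA, RNA, histones and many metabolites. Methionine adenosyltransferase joins methionine to ATP to make SAM, and the S-adenosylhomocysteine (SAH) left after each methyl transfer is split by AHCY. Mat2a encodes the catalytic subunit of the form found outside the liver, Mat2b encodes its regulatory subunit, and Mat1a encodes the liver form. Ahcyl1 (also called IRBIT) and Ahcyl2 (long-IRBIT) encode proteins that resemble AHCY in sequence but are known as binding partners of inositol trisphosphate (IP3) receptors and epithelial ion transporters rather than as SAH hydrolases. In the intestinal epithelium, crypt progenitors divide and mature into absorptive enterocytes on the villus.

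Mat2a (ENSMUSG00000053907) lies on GRCm38 chromosome 6 from 72432799 to 72439558, minus strand. Mat2b (ENSMUSG00000042032) lies on chromosome 11 from 40679314 to 40695203, minus strand. Ahcyl1 (ENSMUSG00000027893) lies on chromosome 3 from 107663118 to 107696560, minus strand. Ahcyl2 (ENSMUSG00000029772) lies on chromosome 6 from 29768011 to 29912310, plus strand. All 4 are protein-coding in GENCODE vM21. None of them overlapped another annotated gene on its own strand. Mat2a overlapped Particl and Ahcyl2 overlapped 4930528J11Rik on the opposite strand. None shared a stretch of 60 bases in the last 600 bases of its transcript with another annotated gene.

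Mat2a mRNA is known to be controlled through hairpins in its 3′ untranslated region (UTR) that the methyltransferase METTL16 recognises. Transcript Mat2a-201 of GENCODE vM21, 2804 bases in 9 exons, was searched for UACAGAGAA and UACAGAAAA, the core letters of those hairpins, and held 6 matches, all in the 3′ UTR. They are shown because the genes that act on them were among those measured. Capitals mark the core letters, and the sequences read 5′ to 3′ on the minus strand of GRCm38.
Site 1, chr6:72434234-72434263: uggcguagguUACAGAGAAgccuucaagcu
Site 2, chr6:72433450-72433479: ccuugugauaUACAGAGAAgucacagggca
Site 3, chr6:72433271-72433300: cugguguagcUACAGAGAAaccagcuuccu
Site 4, chr6:72433156-72433185: auggcguaagUACAGAGAAgccaucaccuc
Site 5, chr6:72433045-72433074: caagguguccUACAGAAAAaccuuggguua
Site 6, chr6:72432937-72432966: gcugguguggUACAGAGAAgccagcuuguu
Only site 5 carries UACAGAAAA, and the other 5 carry UACAGAGAA. A match of letters is a description and does not show that a site was used in these cells.

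Ahcyl1 and Ahcyl2 were both highest in enterocyte-like cells (below), so the 120 bases before a RefSeq transcription start of each (GRCm38.p6) are shown, with matches to 2 motifs in capitals. Each gene had 3 starts in that table, and the one shown for Ahcyl2 lies 432 bases inside the gene's GENCODE start. The motifs were chosen after the letters had been seen.
Ahcyl1, chr3:107696561-107696680, minus strand: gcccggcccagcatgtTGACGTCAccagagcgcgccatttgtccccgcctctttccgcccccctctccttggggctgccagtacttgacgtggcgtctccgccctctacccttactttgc
Ahcyl2, chr6:29768323-29768442, plus strand: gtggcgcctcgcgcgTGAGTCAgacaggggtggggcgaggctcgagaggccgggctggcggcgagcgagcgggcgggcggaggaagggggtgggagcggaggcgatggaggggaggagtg
The Ahcyl1 stretch holds TGACGTCA, the cyclic AMP response element, which 1.55% of 32851 promoters held on either strand within 250 bases before the start. The Ahcyl2 stretch holds TGAGTCA, the AP-1 motif, which 4.46% held. The E-box CACGTG was in none of the 250-base windows of the 4 genes and in 6.02% of all promoters, and its absence says nothing of the factors that bind it.

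After filtering, 7941 cells of mouse 1 and 6957 cells of mouse 2 remained, with medians of 4381 and 2803 UMIs. The 18 classes that had at least 20 cells in each mouse were tested: 4 epithelial-like classes (828 and 271 cells) and 14 leukocyte-like classes, 2 of them of cycling cells. Leukocyte-like cells made up 83.3% and 95.8% of the kept cells. T-cell clusters mixed receptor types, so T cells were divided cell by cell, a step chosen after the clusters were seen. Besides Cd3 genes, the gates used transcripts of receptor chains (Trac, Trdc), coreceptors (Cd4, Cd8a, Cd8b1) and Foxp3. Of the T cells, 63.1% and 65.5% passed no gate. Levels are UMIs of a gene per 1000000 UMIs outside immunoglobulin genes, because immunoglobulin genes took 67.4% and 68.0% of the UMIs of plasma-cell-like cells. A 3′ UMI count does not grow with transcript length, so levels of different genes were compared without a length correction. Other differences in capture between genes were not measured, so a ratio of 2 genes is a ratio of UMIs. Class names rested on marker genes. The level of Olfm4, a crypt marker, was 472 and 567 in crypt progenitor-like cells and 1.33 and 0 among enterocyte-like cells. Fabp1, an enterocyte fatty-acid-binding protein, had a level of 9444 and 23020 in enterocyte-like cells. Crypt progenitor-like cells also held Fabp1, at a level of 103 for mouse 1 and 765 for mouse 2. The part of this enterocyte RNA in the comparison of both classes was not tested. The tuft-like cluster was small, 26 cells in each mouse, and also carried 14 of 21 crypt markers. The secretory mixture combined Paneth, goblet and enteroendocrine markers. Pancreatic-acinar-like cells occurred in mouse 1 alone and were not compared. The libraries shared 16 cell barcodes among the kept cells.

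Mat2a was highest in tuft-like and crypt progenitor-like cells. In crypt progenitor-like cells its level was 156 in mouse 1 (274 UMIs) and 166 in mouse 2 (96 UMIs), a mean of 161 ± 6.51 (SD, n = 2). In enterocyte-like cells it was 91.2 (412 UMIs) and 61.7 (49 UMIs), a mean of 76.5 ± 20.8 (SD, n = 2). Both crypt values lay above both enterocyte values. The tuft-like values of 179 and 381 rested on 8 and 19 UMIs, and the secretory mixture gave 35.9 and 159 on 19 and 63 UMIs, so the mice differed widely in both small classes. With TMM-scaled library sizes the tuft-like mean was 154 and the crypt progenitor-like mean 153, so the gap between them depended on the scaling.

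Among leukocyte-like classes the mean level of Mat2a ran from 64.9 ± 17.1 (SD, n = 2) in regulatory T-like cells to 110 ± 37.0 (SD, n = 2) in dendritic-cell-like cells. In the order of all 18 means, 14 of 17 neighbouring classes overlapped between mice. The exceptions were tuft-like over crypt progenitor-like, crypt progenitor-like over dendritic-cell-like, and CD8 alpha-beta T-like over macrophage-like cells. A test of any difference among the leukocyte-like classes gave an adjusted p of 0.380 for Mat2a, where 70.7% of the 11692 genes tested differed (edgeR's quasi-likelihood F test, Benjamini-Hochberg adjusted, used throughout; cycling classes were left out of this one).

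Mat2b showed a different order, with T cells at the top. Its level was 166 and 159 in CD8 alpha-beta T-like cells, a mean of 162 ± 4.98 (SD, n = 2), and 151 and 156 in gamma-delta T-like cells. Conventional CD4 T-like cells had 156 and 157, regulatory T-like cells 133 and 185, and T cells outside these gates 140 and 158. On this scale, all values of these 5 T-cell classes lay above those of every other leukocyte-like class. With TMM-scaled library sizes, the regulatory T-like value fell below the plasma-cell-like one in mouse 1, so the separation depended on scaling.

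Innate-lymphoid-like cells followed with a Mat2b level of 120 and 113, then plasma-cell-like cells with 98.5 and 101. The lowest leukocyte-like values were 68.7 and 68.9 in monocyte-like cells, 59.8 and 67.5 in dendritic-cell-like cells, and 53.9 and 66.3 in cycling leukocyte-like cells. In the epithelium Mat2b was 79.3 and 86.2 in crypt progenitor-like, 91.0 and 70.6 in enterocyte-like and 66.1 and 58.2 in secretory mixture cells. Tuft-like cells gave 44.8 and 160.5 on 2 and 8 UMIs, so the mice were far apart in that class. Mat2b differed among leukocyte-like classes with an adjusted p of 0.00302, where 70.7% of all genes were called, and 12 of 17 neighbouring classes overlapped.

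**Figure D1:**
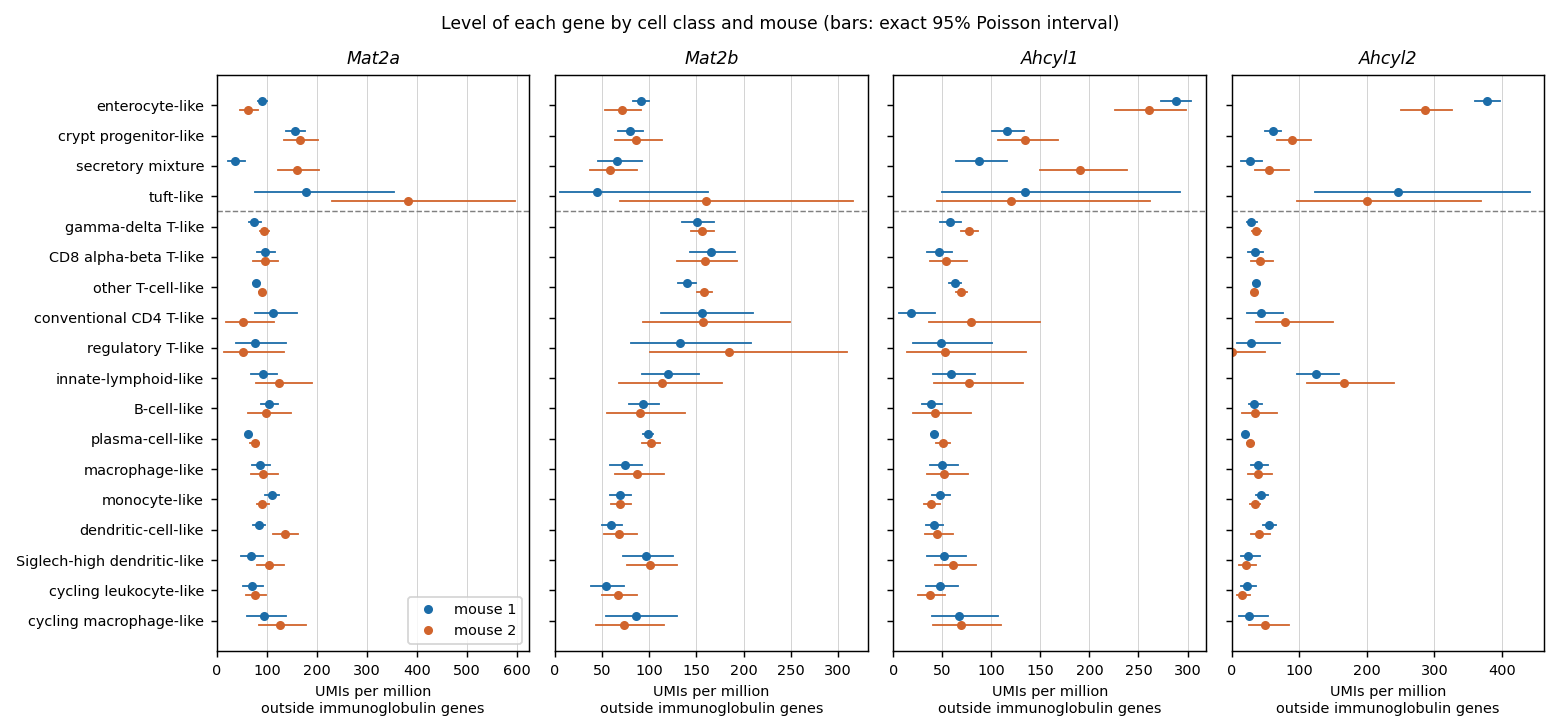
Level of Mat2a, Mat2b, Ahcyl1 and Ahcyl2 (x axes, UMIs per 1000000 outside immunoglobulin genes) in 18 cell classes (y axis), with 1 point for each mouse and its exact 95% Poisson interval. The dashed line separates 4 epithelial-like classes from 14 leukocyte-like classes, and the T-cell classes stand to the right for Mat2b while enterocyte-like cells stand to the right for Ahcyl1 and Ahcyl2.

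Ahcyl1 was highest in the epithelium. Its level was 288 (1301 UMIs) and 261 (207 UMIs) in enterocyte-like cells, a mean of 274 ± 19.2 (SD, n = 2), and 116 (204 UMIs) and 134 (78 UMIs) in crypt progenitor-like cells. Tuft-like cells had 134 and 120 on 6 UMIs in each mouse, and the secretory mixture 86.9 and 190. In the 14 leukocyte-like classes the means ran only from 40.7 ± 2.99 (SD, n = 2) in B-cell-like cells to 68.1 ± 13.1 (SD, n = 2) in innate-lymphoid-like cells. All epithelial-like values lay above the highest leukocyte-like value, 78.7 in conventional CD4 T-like cells of mouse 2. No difference among leukocyte-like classes was detected (adjusted p = 0.549).

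Ahcyl2 had the widest range of the 4 genes. Enterocyte-like cells had a level of 378 (1710 UMIs) and 286 (227 UMIs), a mean of 332 ± 65.4 (SD, n = 2), and crypt progenitor-like cells 60.5 (106 UMIs) and 89.7 (52 UMIs). Tuft-like cells had 246 and 201, on 11 and 10 UMIs. The secretory mixture, at 26.5 and 55.7, was no higher than many leukocytes. Within the epithelium, Ahcyl2 thus spanned from 41.1 to 332 in class means, and Ahcyl1 from 125 to 274.

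Among leukocytes, Ahcyl2 stood out in innate-lymphoid-like cells, whose leading genes included Il22 and Il23r. Their Ahcyl2 level was 125 (68 UMIs, exact 95% Poisson interval 97.1 to 158.5) in mouse 1 and 167 (28 UMIs, 111 to 241) in mouse 2. The next leukocyte-like class, conventional CD4 T-like cells, had 43.5 and 78.7 on 12 and 9 UMIs. Plasma-cell-like cells had 19.1 and 27.0. Regulatory T-like cells had 4 UMIs in mouse 1 and none in mouse 2, where the limit that 3 counts set was a level of 39.6. The T-cell cluster led by Foxp3 carried 8 of 9 conventional CD4 T, 6 of 8 regulatory T and 7 of 12 innate-lymphoid markers. It had an Ahcyl2 level of 83.5 (60 UMIs) and 72.6 (27 UMIs). In each mouse this was the highest level among the 15 T-cell clusters with at least 20 cells in that mouse.

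The test of any difference among leukocyte-like classes gave an adjusted p of 2.68e-05 for Ahcyl2. It called 2 of the 4 genes, Ahcyl2 and Mat2b, where 70.7% of all genes were called. Without the innate-lymphoid-like class, an alternative added after these levels were seen, Ahcyl2 still differed among the rest (adjusted p = 0.0106). So did 8090 of the 11692 genes tested. The Fabp1 level, a measure of enterocyte RNA, was 34.9 and 23.8 in innate-lymphoid-like cells and ran from 21.0 to 44.4 over the T-cell classes of mouse 1 and from 0 to 26.2 over those of mouse 2. In the order of all 18 means, 13 of 17 neighbouring classes overlapped, and enterocyte-like, tuft-like and innate-lymphoid-like cells each stood clear of the class below.

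The balance between both AHCY-like genes was expressed as the share of Ahcyl1 among Ahcyl1 plus Ahcyl2 UMIs, for which no test was run. In crypt progenitor-like cells the share was 65.8% (204 of 310 UMIs, exact 95% binomial interval 60.2 to 71.1%) in mouse 1 and 78 of 130 UMIs (51.0 to 68.5%) in mouse 2. In enterocyte-like cells it was 43.2% (1301 of 3011, 41.4 to 45.0%) and 47.7% (207 of 434, 42.9 to 52.5%). Both crypt shares were above both enterocyte shares. The secretory mixture had the highest share in the epithelium, 76.7% (64.0 to 86.6%) and 77.3% (67.7 to 85.2%), and tuft-like cells the lowest, 35.3% (14.2 to 61.7%) and 37.5% (15.2 to 64.6%).

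Most leukocyte-like classes had a mean share above 50%, though many of the intervals included 50%. The share was 66.5% (59.1 to 73.3%) and 67.9% (63.4 to 72.2%) in gamma-delta T-like cells and 68.7% (65.7 to 71.6%) and 65.0% (59.4 to 70.4%) in plasma-cell-like cells. CD8 alpha-beta T-like cells had 57.3% and 55.7%, macrophage-like cells 55.9% and 57.4%, and monocyte-like cells 52.5% and 52.8%, with intervals that included 50% in each mouse. Innate-lymphoid-like cells were at the other end, with 32.0% (23.0 to 42.1%) and 31.7% (18.1 to 48.1%), so that most of these UMIs were Ahcyl2. Regulatory T-like cells, with 11 and 4 UMIs in all, gave 63.6% and 100% and cannot be placed.

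**Figure D2:**
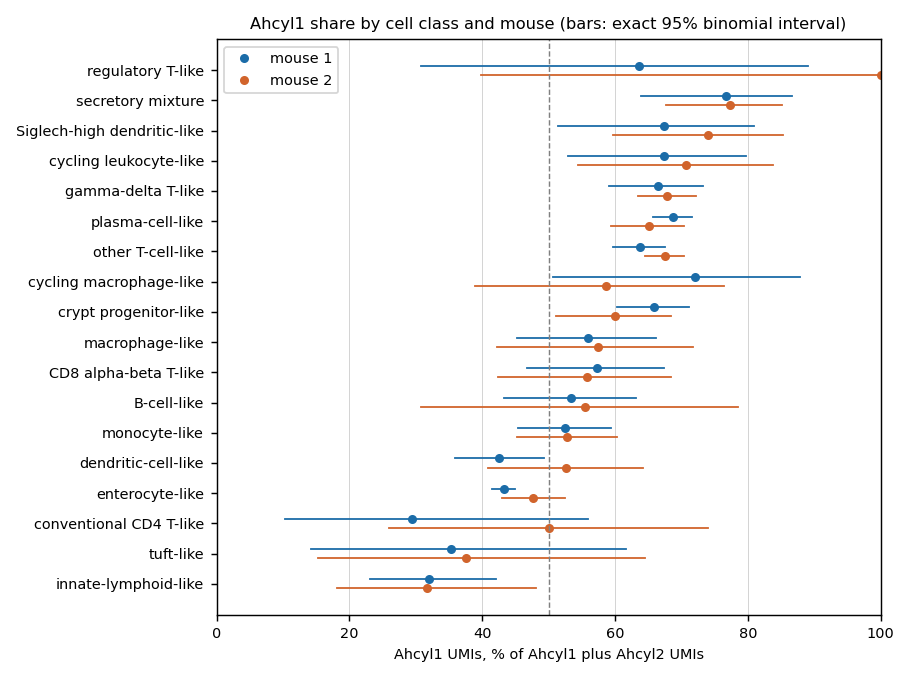
Ahcyl1 UMIs as a percentage of Ahcyl1 plus Ahcyl2 UMIs (x axis) in 18 cell classes ordered by their mean (y axis), with 1 point for each mouse and its exact 95% binomial interval. The dashed line marks equal counts. Innate-lymphoid-like cells (32.0% and 31.7%) lie below it in both mice, as do enterocyte-like (43.2% and 47.7%) and tuft-like cells (35.3% and 37.5%).

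Crypt progenitor-like cells were then compared with enterocyte-like cells in a fit of all 18 classes. Ahcyl2 was lower in crypt progenitor-like cells (log2 fold change -2.64 ± 0.29 SE, n = 2 mice, adjusted p = 6.9e-08), and so was Ahcyl1 (-1.58 ± 0.24 SE, adjusted p = 9.35e-06). In single mice the values were -3.10 and -2.07 for Ahcyl2 and -1.77 and -1.36 for Ahcyl1. Mat2a was 0.58 ± 0.34 (SE, adjusted p = 0.186) and Mat2b -0.44 ± 0.25 (SE, adjusted p = 0.168). Thus 2 of 4 genes were lower and none was higher, where 24.3% of all genes were lower, 14.7% higher and 39.0% either. All genes together had a median of -0.26. For Mat2a the call depended on the fit: with only these 2 classes its log2 fold change was 0.88 (adjusted p = 0.0259).

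Levels also varied within the enterocyte-like class, which was made of 5 sub-clusters. The level of Ahcyl2 ran from 326 to 557 over them in mouse 1 and from 71.2 (3 UMIs) to 325 over the 4 that had at least 20 cells in mouse 2, and that of Ahcyl1 from 184 to 432 and from 142 to 400. In the sub-cluster led by Pla2g4c, Gulo and Cyp2c29, Ahcyl1 was 184 and 146 (15 cells in mouse 2) beside an Ahcyl2 level of 379 and 291. In the sub-cluster led by Ada and with Krt20 and Klf4 among its leading genes, Ahcyl1 was highest in both mice, at 432 and 400, and Mat2a lowest, at 43.2 and 27.9 on 6 and 3 UMIs. Median depth was 1607 and 1571 UMIs per cell in that sub-cluster, and its part in these values was not tested. The sub-clusters were defined on the same cells, so these values are a description.

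**Figure D3:**
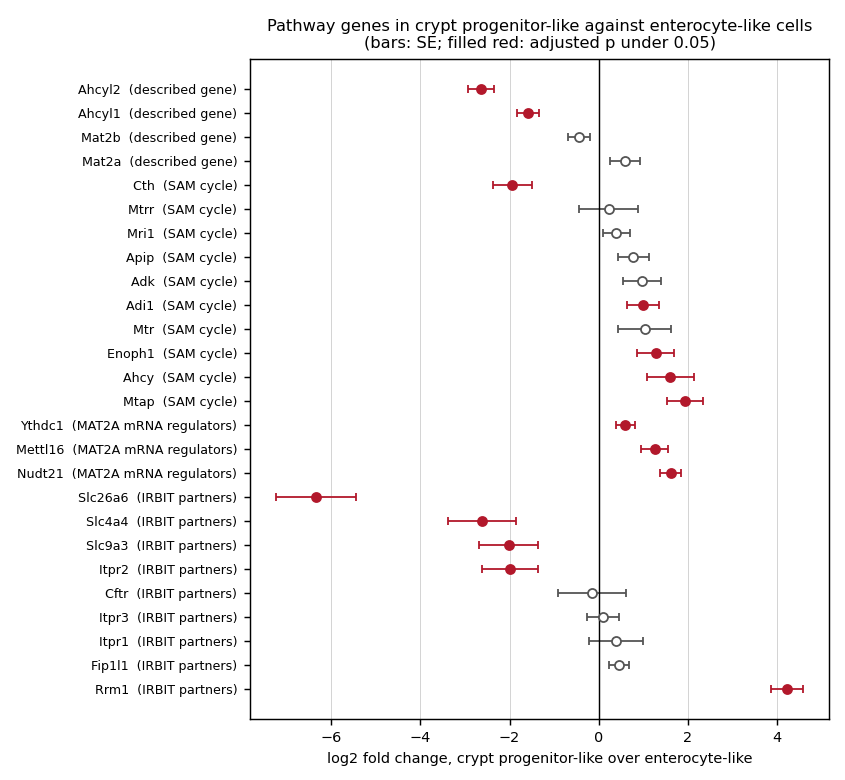
Log2 fold change of crypt progenitor-like over enterocyte-like cells (x axis; bars are SE; filled red points have an adjusted p under 0.05) for the 4 genes described here and for tested genes of 3 lists (y axis). Ahcyl1 and Ahcyl2 lie to the left, all 3 regulators of Mat2a mRNA lie to the right, and the IRBIT partners lie on both sides.

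The other genes of the pathway were read from lists. Of 3 genes whose products act on Mat2a mRNA, all 3 were higher in crypt progenitor-like than in enterocyte-like cells: Nudt21, a cleavage factor subunit (log2 fold change 1.62, adjusted p = 4.49e-06), Mettl16, which methylates the hairpins shown above (1.26, adjusted p = 0.00162), and Ythdc1, a nuclear reader of that methyl mark (0.60, adjusted p = 0.0305, but 0.243 without a filter on low counts). The Mettl16 level was 57.6 and 53.4 in crypt progenitor-like and 15.7 and 20.2 in enterocyte-like cells. The median of these 3 genes was 1.26 beside -0.26 for all genes, of which 14.7% were higher.

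Of 17 further genes of the SAM cycle, methionine salvage and transsulfuration, 11 were expressed enough to test, 4 were higher in crypt progenitor-like cells and 1 was lower, beside 14.7% and 24.3% of all genes. The higher ones included Adi1, whose call was lost without a filter on low counts (adjusted p = 0.0707), and Ahcy. Mtap, which starts methionine salvage from methylthioadenosine, was higher (1.93, adjusted p = 4.19e-04), as was Enoph1, a later salvage enzyme (1.28, adjusted p = 0.0146). Cth, which makes cysteine from cystathionine, was lower (-1.93, adjusted p = 0.00189). Their median was 0.96. Mat1a had no UMI in any of the 18 classes, and the limit that 3 counts set was 0.664 in enterocyte-like cells of mouse 1. In pancreatic-acinar-like cells of mouse 1, Mat1a had 24 UMIs, a level of 15.4. Ahcy, at 31.9 and 34.5 for crypt progenitor-like and 6.42 and 11.3 for enterocyte-like cells, shared 22.6% of its terminal 60-base stretches with the annotated gene Gm4737, so its count is uncertain.

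Of 9 known binding partners of the AHCY-like proteins, 4 were lower in crypt progenitor-like cells and 1 was higher, where 24.3% and 14.7% of all genes were. The chloride-bicarbonate exchanger Slc26a6 had 1 UMI and none in crypt progenitor-like cells, against 186 and 9 in enterocyte-like cells (adjusted p = 3.3e-06). The sodium-bicarbonate cotransporter Slc4a4 was lower by a log2 fold change of -2.62 (adjusted p = 0.00889, but 0.689 with DESeq2). Rrm1, a ribonucleotide reductase subunit needed for DNA synthesis, was higher (4.22, adjusted p = 1.81e-09). The other lower genes, Itpr2 and Slc9a3, each lost their call under some alternatives (highest adjusted p 0.342 and 0.0624). The median of the 9 was -0.15, beside -0.26 for all genes.

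Epithelial-like classes were compared with leukocyte-like classes as means over classes, with cycling cells left out. Ahcyl2 was higher in epithelial-like classes (log2 fold change 1.68 ± 0.16 SE, adjusted p = 5.88e-10), as were Ahcyl1 (1.61 ± 0.15 SE, adjusted p = 7.13e-10) and Mat2a (0.58 ± 0.16 SE, adjusted p = 0.00407). Mat2b was lower (-0.42 ± 0.13 SE, adjusted p = 0.00771). Each direction held in 2 of 2 mice. So 3 of 4 genes were higher and 1 lower, where 22.0% and 27.4% of all genes were. The Mat2b difference was lost without the tuft-like class and the secretory mixture (-0.13, adjusted p = 0.459), with DESeq2 (-0.26, adjusted p = 0.111) and without a filter on low counts (-0.38, adjusted p = 0.0937), whereas Mat2a stayed within 0.50 to 0.74 and was called in all 11 alternatives that kept both mice. In single mice the Mat2a value was 0.23 and 0.79.

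Itpr1 and Itpr2, IP3 receptors, were lower in epithelial-like classes (log2 fold changes -2.72 and -2.60, adjusted p = 9.1e-10 and 2.45e-10). The chloride channel Cftr was higher (adjusted p = 3.84e-08), with a level of 17.3 and 32.8 in enterocyte-like cells and at most 1.38 in any leukocyte-like class. Of 9 partners, 4 were higher and 3 lower, where 22.0% and 27.4% of all genes were. Of the 3 regulators of Mat2a mRNA, Ythdc1 alone was called, and it was lower (-0.72, adjusted p = 1.17e-06). Of 11 tested SAM cycle genes 3 were higher and 2 lower, beside the same shares of all genes. Cth, which was higher, had the smallest adjusted p (3.3e-07). Mtr, which remakes methionine from homocysteine, was 1 of the 2 lower ones (-1.40, adjusted p = 0.0025).

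**Figure D4:**
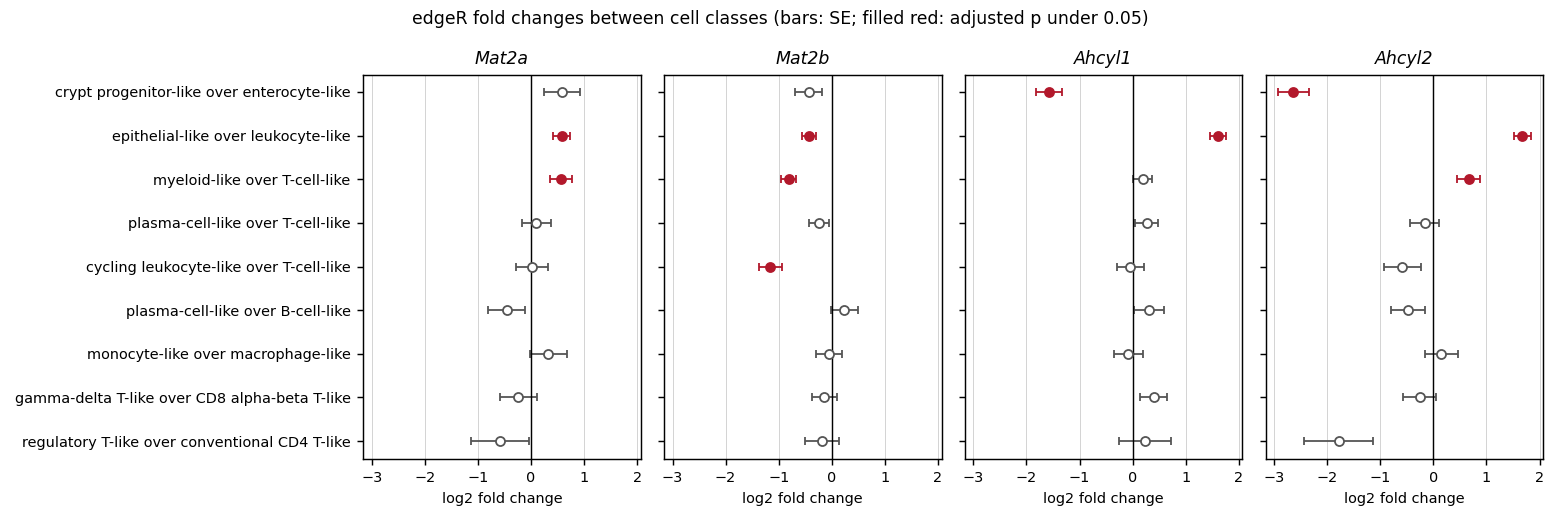
Log2 fold change of each of the 4 genes (panels, x axes; bars are SE; filled red points have an adjusted p under 0.05) in 9 comparisons between cell classes (y axis). Mat2b is called lower in myeloid-like and in cycling cells against T cells, and the widest bars are those of regulatory against conventional CD4 T-like cells.

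Within leukocytes, myeloid-like cells (the mean of macrophage-like, monocyte-like and dendritic-cell-like classes) were set against T cells (the mean of 4 gated subsets). Mat2b was lower in myeloid-like cells (log2 fold change -0.81 ± 0.14 SE, adjusted p = 3.48e-05), with -0.86 and -0.75 in single mice. Ahcyl2 (0.67 ± 0.22 SE, adjusted p = 0.0146) and Mat2a (0.57 ± 0.21 SE, adjusted p = 0.0325) were higher. Ahcyl1 was 0.19 ± 0.17 (SE, adjusted p = 0.433). These 2 higher and 1 lower of 4 genes stand beside 26.8% higher, 16.8% lower and 43.6% either of all genes.

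Mat2b kept its call in all 11 alternatives of this comparison. The call of Mat2a was lost without regulatory and conventional CD4 T-like cells (adjusted p = 0.0969) and without dendritic-cell-like cells (0.0908), and that of Ahcyl2 without dendritic-cell-like cells (0.0646). In these cells the regulators of Mat2a mRNA had 1 member called, Ythdc1, which was lower (-0.83, adjusted p = 2.45e-06). Of 9 IRBIT partners 4 were lower and none higher, led by Itpr3 (-1.78, adjusted p = 3.71e-07) and Itpr2 (-1.60, adjusted p = 7.8e-07). Of 11 tested SAM cycle genes 3 were higher and none lower, led by Enoph1 (1.80, adjusted p = 1.17e-04) and Apip (1.27, adjusted p = 4.03e-04). In this comparison 26.8% of all genes were higher and 16.8% lower, so the SAM cycle count was near the share of all genes.

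Plasma-cell-like cells did not differ detectably from T cells or from B-cell-like cells in any of the 4 genes by edgeR. Against T cells the log2 fold changes were 0.10 ± 0.28 (SE) for Mat2a, -0.24 ± 0.19 for Mat2b, 0.26 ± 0.21 for Ahcyl1 and -0.16 ± 0.28 for Ahcyl2, with adjusted p from 0.355 to 0.832, where 37.4% of all genes were called. DESeq2 called Mat2b lower (-0.38, adjusted p = 0.00801). Against B-cell-like cells they were -0.46 ± 0.35 (SE) for Mat2a, 0.24 ± 0.25 for Mat2b, 0.31 ± 0.28 for Ahcyl1 and -0.48 ± 0.32 for Ahcyl2, with adjusted p from 0.312 to 0.554, where 26.9% of all genes were called.

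Another gene near the cycle did separate plasma cells. Adk, which removes the adenosine released by AHCY, was higher in plasma-cell-like cells than in T cells by a log2 fold change of 3.19 (adjusted p = 6.84e-09) and than in B-cell-like cells by 2.97 (adjusted p = 2.91e-05). Its level was 94.5 and 107 in plasma-cell-like cells and 15.8 and 4.28 in B-cell-like cells. Adk was 1 of 2 SAM cycle genes called of 11 tested against T cells, where 37.4% of all genes were called. It was the only one of 11 called against B-cell-like cells, where 26.9% were.

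Cycling leukocyte-like cells, which also carried 6 of 10 plasma-cell markers, had less Mat2b than T cells (-1.16 ± 0.22 SE, adjusted p = 1.68e-04), with -1.29 and -1.02 in single mice. Mat2a was 0.02 ± 0.31, Ahcyl1 -0.04 ± 0.25 and Ahcyl2 -0.59 ± 0.35 (SE, adjusted p from 0.213 to 1.00). Thus 1 of 4 genes was lower, where 13.9% of all genes were. The median UMI count of these cells was 26027 and 20397, against 3133 and 2441 in gamma-delta T-like cells, and immunoglobulin genes took 28.8% and 24.7% of their UMIs. The part of depth and of plasma cells in the Mat2b difference was not tested.

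The remaining comparisons within a lineage showed no called difference. The larger of 2 monocyte-like clusters, 169 and 180 cells, carried 10 of 11 macrophage markers beside 8 of 12 monocyte markers. The level of C1qa, a macrophage complement gene, was 1244 and 670 in monocyte-like and 5472 and 4859 in macrophage-like cells. The part of this overlap in the comparison was not tested. For monocyte-like over macrophage-like cells the log2 fold changes were 0.33 ± 0.35 (SE) for Mat2a, -0.05 ± 0.25 for Mat2b, -0.08 ± 0.27 for Ahcyl1 and 0.15 ± 0.31 for Ahcyl2 (adjusted p from 0.704 to 0.974), where 3.56% of all genes were higher and 3.62% lower, 7.18% in all. For gamma-delta T-like over CD8 alpha-beta T-like cells they were -0.24 ± 0.34, -0.14 ± 0.23, 0.40 ± 0.26 and -0.26 ± 0.31 in the same order (adjusted p from 0.912 to 1), where 0.676% of all genes were higher and 0.325% lower, 1.00% in all. For regulatory T-like over conventional CD4 T-like cells Mat2a was -0.58 ± 0.55, Mat2b -0.19 ± 0.32 and Ahcyl1 0.23 ± 0.49 (adjusted p from 0.969 to 1.00), where 0.205% were higher and 0.0599% lower, 0.265% in all. Ahcyl2 had 4 UMIs and none in the regulatory T-like cells against 12 and 9 (unadjusted p = 0.0129, adjusted p = 0.475). With SEs of this size, none of these results shows that the classes carry equal levels.

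Genes whose mean log2 level followed each of the 4 genes most closely over the 18 classes were listed as a description, since the classes share mice and libraries. For Ahcyl1 they were Gstm7 (Pearson r = 0.956), Magi1 (0.947) and Arhgef19 (0.943). For Ahcyl2 they were Oma1 (0.891), Dbt (0.869) and Plin3 (0.848). For Mat2a they were Brd7 (0.915), Macc1 (0.884) and Knop1 (0.880), and for Mat2b Zc3hav1 (0.885), Sbno1 (0.879) and Trim56 (0.868). Among the 4 genes themselves the highest correlation was between Ahcyl1 and Ahcyl2 (0.655), and Mat2a and Mat2b, the subunits of 1 enzyme, had -0.211.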

How the data were processed

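Droplet single-cell 3′ libraries of 2 mice were sequenced, and the authors deposited UMI counts per gene and barcode made with Cell Ranger 6.1.2 on mm10. The gene annotation release is not given in the sources used here. Barcodes with over 100 genes, over 400 UMIs, under 5% mitochondrial and under 10% haemoglobin UMIs were kept, integrated and clustered with Seurat 5.3.0 (resolution 0.8) and named from fixed markers. A doublet caller marked too few cells to be trusted, so none were removed, and removing the 8% with the highest scores was an alternative. Sums of raw counts over the cells of each class in each mouse were tested with edgeR 4.0.16 (quasi-likelihood, TMM, filterByExpr, R 4.3.3), with Benjamini-Hochberg adjustment over all genes tested. DESeq2 1.42.0 was an alternative. Sums with the same number came from the same mouse, and the correlation of their deviations from class means had a median of 0.158 over 153 pairs of classes (0.00143 to 0.619). The test was checked on simulated counts. For crypt progenitor-like over enterocyte-like cells it recovered 7.1% of log2 changes of 1 and 61.3% of those of 2. For monocyte-like over macrophage-like cells it recovered 13.9% and 65.5%, so an uncalled difference may be a missed one. Intervals (95%, exact) and the limit that 3 counts set cover counting error only. With 2 mice per class, p-values reflect little biological replication. All 4 genes were described in every comparison. For each pathway list, counts were given with up to 3 genes of smallest adjusted p under 0.05, and the 3 genes of highest Pearson correlation with each gene were named. The genes and lists were chosen with earlier results of these data known. The result of 1 listed gene is not reported here.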

Additional observations from a re-analysis of the deposited data

Results flagged for a closer look

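These values lie in cells that no comparison used, and each is a level in UMIs per 1000000 outside immunoglobulin genes, above the limit that a count of 0 allows. In the 1704 barcodes that the filters removed from mouse 1, the level was 40.1 for Mat2a, 37.2 for Mat2b, 36.2 for Ahcyl1 and 34.5 for Ahcyl2, against 78.0, 99.6, 76.1 and 68.7 in the kept cells of that mouse. In the 1843 barcodes removed from mouse 2 it was 88.9 for Mat2a, 99.6 for Mat2b, 68.6 for Ahcyl1 and 40.3 for Ahcyl2, against 93.1, 125, 71.0 and 43.3 in kept cells.

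Pancreatic-acinar-like cells, found in mouse 1, had a level of 23.2 for Mat2a, 30.9 for Mat2b, 18.7 for Ahcyl1 and 10.9 for Ahcyl2. The clusters left without a name had 78.5 and 106 for Mat2a in mouse 1 and mouse 2, 90.5 and 86.6 for Mat2b, 122 and 106 for Ahcyl1, and 128 and 77.0 for Ahcyl2. These pooled values mix unlike cells. In mouse 1, a cluster of 190 cells with 6 of 9 epithelial markers had 279 for Ahcyl1 and 224 for Ahcyl2. Another, of 45 cells with 9 of 10 plasma-cell markers, had 37.7 and 14.7.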

How the results depend on the processing

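Of 385 values of the 4 genes under other settings, 364 kept their direction and side of the threshold, 8 changed side and 13 changed sign, all 13 uncalled before and after. Mat2a in cycling leukocyte-like over T cells was -0.020 with DESeq2, -0.0082 in the fit with the replicate block, -0.091 with mitochondrial UMIs under 10%, -0.093 without integration and -0.098 without regulatory and conventional CD4 T-like cells. Ahcyl1 there was 0.060 with only the compared classes. In monocyte-like over macrophage-like cells, Mat2b was 0.00943 without integration and 0.015 at resolution 1.2, and Ahcyl2 was -0.31 with mitochondrial UMIs under 10% and -0.042 with high doublet scores removed. Without regulatory and conventional CD4 T-like cells, Ahcyl1 in myeloid-like over T cells was -0.020 and Mat2a in plasma-cell-like over T cells -0.015. The latter was -0.034 with DESeq2. Mat2a in crypt progenitor-like over enterocyte-like cells passed with only the compared classes (0.88), and Mat2b in plasma-cell-like over T cells with DESeq2 (-0.38). Mat2b in epithelial-like over leukocyte-like cells was lost with DESeq2 (-0.26), without a filter on low counts (-0.38) and without tuft-like cells and the secretory mixture (-0.13). In myeloid-like over T cells, Mat2a was lost without regulatory and conventional CD4 T-like cells (0.45) and without dendritic-cell-like cells (0.50), and Ahcyl2 without dendritic-cell-like cells (0.56). Settings that leave out classes were chosen after seeing the data. The cause was not tested.

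With 1 mouse at a time, which gives a value and no test, Ahcyl2 ran from -0.35 to 0.38 in cycling leukocyte-like over T cells, 1.58 to 2.16 in epithelial-like over leukocyte-like, 0.76 to 1.78 in myeloid-like over T cells and -0.38 to 1.31 in plasma-cell-like over T cells. In regulatory over conventional CD4 T-like cells it ran from -0.81 to -7.90, the latter in mouse 2 with no UMI. Mat2b in epithelial-like over leukocyte-like ran from -0.62 to -0.42, and Mat2a there from 0.23 to 0.79. Mat2a in crypt progenitor-like over enterocyte-like cells was 0.31 and 1.02. Ahcyl1 differed in sign between mice in cycling leukocyte-like over T cells (0.45 and -0.51), myeloid-like over T cells (0.54 and -0.13) and regulatory over conventional CD4 T-like cells (1.24 and -0.71).

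A replicate block for the mouse changed no call of the 4 genes, but with it the number of genes called was 236 for gamma-delta over CD8 alpha-beta T-like cells (117 without the block), 1381 for monocyte-like over macrophage-like (839) and 49 for regulatory over conventional CD4 T-like (31). The first was 226 without a filter on low counts and 184 with only the compared classes, the second 482 with mitochondrial UMIs under 10%, and the third 93 without a filter and 58 with only the compared classes.

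With TMM-scaled library sizes the mean level was 153 for Mat2a in crypt progenitor-like, 136 for Mat2b in CD8 alpha-beta T-like, 354 for Ahcyl1 and 431 for Ahcyl2 in enterocyte-like cells. That scaling lowered the tuft-like means to 154 for Mat2a, 57.0 for Mat2b, 67.9 for Ahcyl1 and 118.8 for Ahcyl2. Of 420 levels under other settings, 74 moved by more than the spread between mice. The Ahcyl1 share in innate-lymphoid-like cells was 32.3% with mitochondrial UMIs under 10%, 28.4% without integration, 33.7% at resolution 1.2 and 29.5% with high doublet scores removed. No tuft-like class formed at resolution 1.2 or without integration, and no cycling macrophage-like class without integration. Precision is limited in small classes, with under 20 UMIs of a gene, and by having 2 mice.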
